A study of Mus musculus with 6 samples.

Results

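The transcripts described here are 35 genes of the p53 response and of the cell death machinery, out of 23441 genes counted in mouse retina. They were selected by gene symbol, with no threshold on their values but with earlier results of these data known. All 35 symbols were found in the count table. Of these, 20 are transcriptional targets of p53 and 15 encode core apoptosis proteins, and the lists are described apart. The CKO group consisted of 3 libraries of retina at embryonic day 14.5 from Ronin flox/flox mice that also carried Chx10-Cre::GFP +/tg, a transgene that expresses Cre recombinase fused to GFP in retinal progenitor cells. The control group consisted of 3 libraries from Ronin flox/flox mice at the same stage, which had the floxed alleles but no Cre, so that the presence of Cre and GFP cannot be told apart from the loss of Ronin. The labels give all mice a mixed background of the strains FVB, SJL/B6, C57/B6 and 129/Sv. Thap11 encodes Ronin, a DNA-binding protein with a THAP zinc finger.

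The p53 protein is a transcription factor that is held at low levels by the ubiquitin ligase MDM2 and accumulates after DNA damage and other stress. Its targets brake the cell cycle, restrain growth or start cell death, and in the developing nervous system p53 removes progenitors with damaged genomes. Apoptosis by the mitochondrial route is set by the BCL-2 family: pro-survival members hold back the pore formers BAX and BAK1, BH3-only proteins release them, and cytochrome c from the opened mitochondria then lets APAF1 activate caspase-9.

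Libraries held between 23721052 and 28504391 counted reads in the CKO and between 24903912 and 26280045 in the controls. Levels are CPM, counts per 1000000 reads of a library size scaled by the TMM method, and counting error alone limits genes with few reads. Thap11 stood at 11.2, 10.9 and 6.38 CPM in the CKO and at 68.3, 82.0 and 71.6 CPM in the controls, so the targeted gene was lower in every library labelled CKO. Control replicate 2 stood apart, with correlations of log2 CPM to the other controls of 0.957 and 0.974, against 0.987 to 0.994 among the CKO libraries. Control replicates 1 and 3 correlated at 0.983, also below the CKO libraries. The median SD of a gene's log2 CPM was 0.094 in the CKO and 0.303 in the controls. Without control replicate 2 it was 0.182 in the controls. Lens RNA also differed: 20 lens markers summed to 11503, 82.5 and 840.2 CPM in CKO replicates 1 to 3 and to between 14.5 and 23.6 CPM in the controls. The 12 retinal progenitor markers summed to between 8264 and 8752 CPM in the CKO and between 8644 and 9222 CPM in the controls. The labels do not say whether libraries came from separate animals or pools, so p-values measure the spread between libraries, which may be in part technical. In bulk RNA, fewer cells of a type and less RNA per cell cannot be told apart.

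Of the targets of p53, 1 rose in the CKO retina, the receptor gene Eda2r, and most others had small positive fold changes that were not called. Genotypes were compared with edgeR's quasi-likelihood test over 14609 genes with enough reads, with p-values adjusted by Benjamini-Hochberg over all of them and a threshold of 0.05. Of the 20 targets 19 were tested, since Fas, a death receptor gene, had only 7, 3 and 6 reads in the CKO and 1, 11 and 3 reads in the controls. Among the 19, 1 was called higher and 0 lower, and 2 (Eda2r and Cdkn1a) had an unadjusted edgeR p under 0.05. Over all genes tested 0.192% were called higher and 0.705% lower, and 6.58% had an unadjusted edgeR p under 0.05. DESeq2's Wald test called 0.801% of them higher and 1.42% lower, and limma-voom called 0.185% higher and 0.637% lower. Another measure was whether the 3 CKO libraries all lay on one side of the 3 controls. By that measure 5 of the 19 targets were higher, namely Eda2r, Cdkn1a, Tnfrsf10b, Aen and Bbc3, and 0 were lower, where 5.74% of all genes tested were higher and 6.91% lower. The median log2 fold change of the tested targets was 0.21, and 17 of 19 values were above 0. Over all genes the median was -0.03, with 44.97% of values above 0. Because the targets were chosen with earlier results of these data known, these shares are descriptions and no test of the list.

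**Figure D1:**
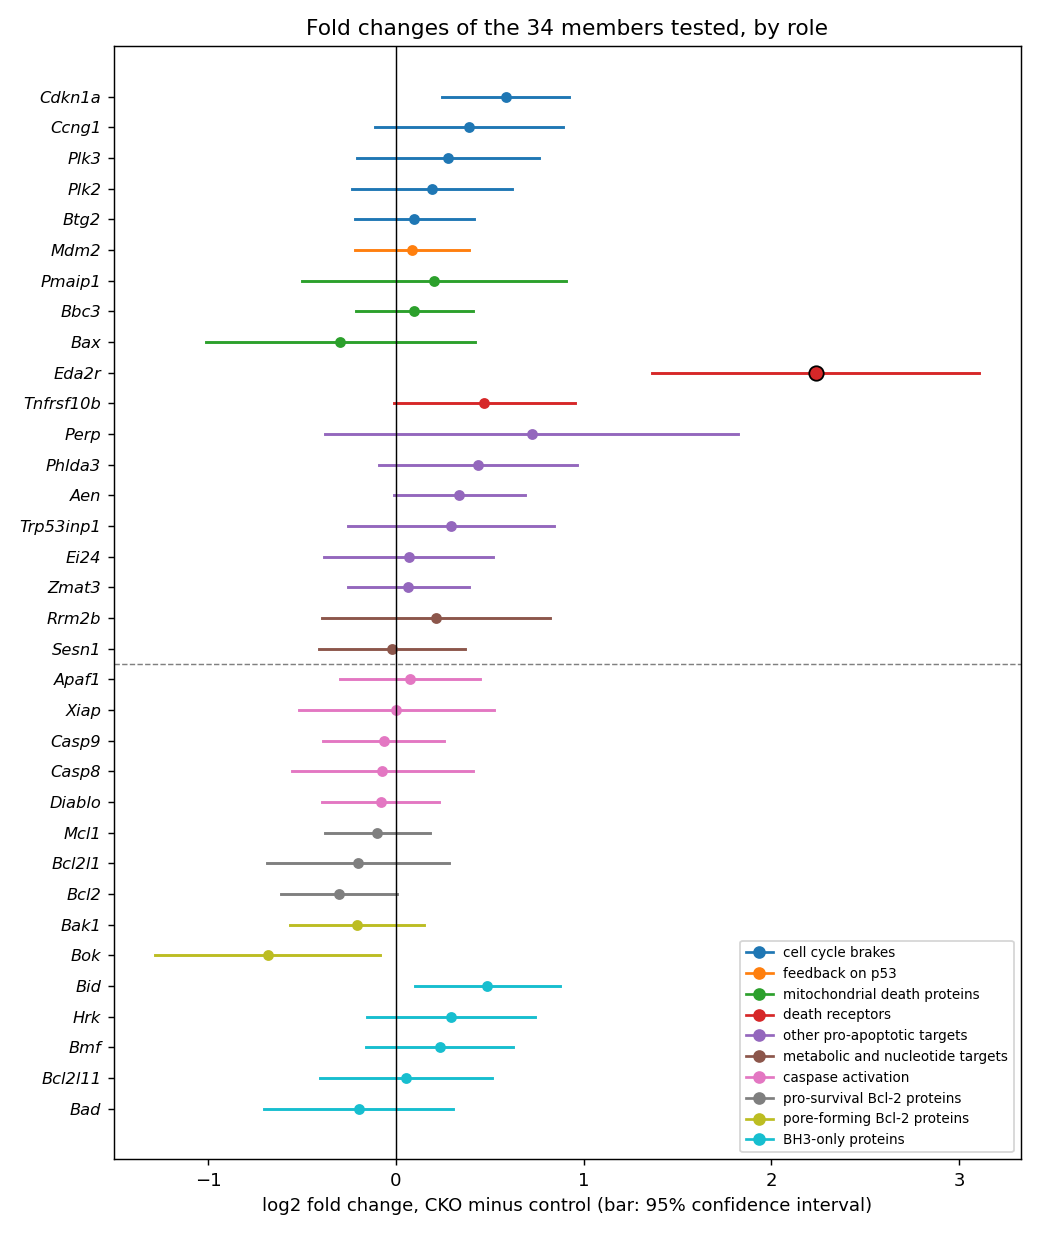
Log2 fold changes of the 34 members tested, CKO minus control, with 95% confidence intervals from the edgeR fit (n = 3 libraries per group), coloured by role. The p53 targets are above the dashed line and the apoptosis genes below it. Eda2r, outlined, lies at 2.24, and the other members lie between -0.68 (Bok) and 0.72 (Perp).

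The shift of the p53 targets was of about the size of the range among the controls. Each library can be given as the median, over the 19 targets, of its log2 CPM minus the mean of the controls. It was 0.31, 0.25 and 0.21 in CKO replicates 1 to 3 and 0.08, -0.19 and 0.09 in control replicates 1 to 3. The CKO libraries were thus all above the controls, and control replicate 2 was the lowest. That library held the lowest value of the 6 in 13 of the 19 targets, against 34.01% of all genes tested. Without it the median log2 fold change was 0.12, with 16 of 19 values above 0. Without control replicate 3 it was 0.34.

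**Figure D2:**
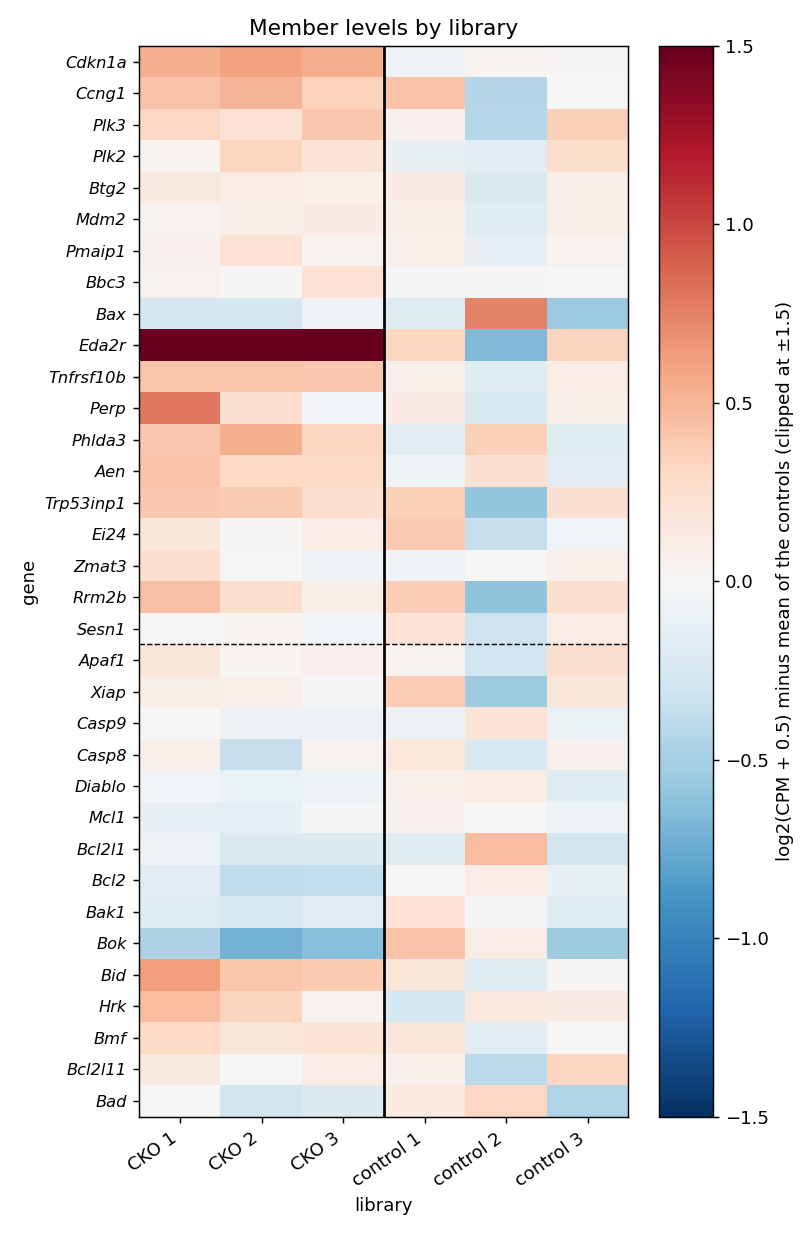
Level of each tested member in each library, as log2(CPM + 0.5) minus the mean of the 3 controls, with colours clipped at 1.5 in either direction. CKO libraries are left of the line and p53 targets above the dashed line. Eda2r and Cdkn1a are high in every CKO library, while control replicate 2 departs from the other controls in both directions.

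The promoters of 3 members are shown because they hold the called gene, the best-known p53 target and the one match to the Ronin-binding element. Capitals mark exact matches to the p53 decamer, the 10-base unit of the p53 consensus, and to the Ronin-binding element. That element is a consensus of 15 bases known from mouse embryonic stem cells. Sites with a mismatch to a pattern were neither marked nor counted. Each sequence runs 5′ to 3′ on the strand of the gene, from 250 bases before to 50 bases after a start site. They are from RefSeq on GRCm38.p6, whereas the reads were counted on mm9. Eda2r lies at chrX:97377160-97377459 on the minus strand, Cdkn1a at chr17:29090729-29091028 on the plus strand and Ei24 at chr9:36797285-36797584 on the minus strand.
Eda2r: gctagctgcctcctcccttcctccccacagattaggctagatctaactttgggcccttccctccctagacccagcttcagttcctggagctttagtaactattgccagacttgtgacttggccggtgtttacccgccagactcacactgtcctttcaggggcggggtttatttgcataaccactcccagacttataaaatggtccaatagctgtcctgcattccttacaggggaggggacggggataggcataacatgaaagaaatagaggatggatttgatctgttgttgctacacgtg
Cdkn1a: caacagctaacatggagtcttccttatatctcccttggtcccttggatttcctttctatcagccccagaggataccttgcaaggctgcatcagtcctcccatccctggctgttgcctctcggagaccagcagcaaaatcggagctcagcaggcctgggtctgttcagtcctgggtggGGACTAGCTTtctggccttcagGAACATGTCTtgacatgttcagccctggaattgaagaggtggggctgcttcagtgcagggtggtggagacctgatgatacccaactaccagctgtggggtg
Ei24: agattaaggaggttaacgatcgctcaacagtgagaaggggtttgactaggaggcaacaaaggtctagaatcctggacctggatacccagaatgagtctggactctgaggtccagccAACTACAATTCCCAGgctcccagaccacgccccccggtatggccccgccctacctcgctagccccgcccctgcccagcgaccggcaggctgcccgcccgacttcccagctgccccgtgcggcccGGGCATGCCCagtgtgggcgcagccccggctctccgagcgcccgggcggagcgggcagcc

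RefSeq promoters were found for 29 of the 35 members, at 42 start sites. Those without one, Pmaip1, Trp53inp1, Zmat3, Perp, Tnfrsf10b and Rrm2b, are all p53 targets. The p53 decamer occurred in 9 of the 42 promoters and in 8.36% of 32851 promoters of the same length. The 9 belong to 8 genes, Aen, Bax, Bmf, Ccng1, Cdkn1a, Ei24, Mdm2 and Sesn1. Of these, Bmf is in the apoptosis list and the rest are in the p53 list. The windows of both Aen promoters overlap and hold the same match. A pair of decamers with 0 to 13 bases between them was found in 1 of the 42, a Cdkn1a promoter, and in 0.0731% of all promoters. The pair began 73 bases before the upstream start site shown, and the other Cdkn1a promoter, at chr17:29093519-29093818, had no decamer. The Eda2r promoter had no exact match to any of the 4 patterns searched. The Ronin-binding element, searched on both strands, was found in 1 of the 42, that of Ei24, and in 0.673% of all promoters. Its core ACTACA, also searched on both strands, was found in 3 of the 42, of Ei24, Bcl2l1 and Casp8, and in 10.3% of all promoters. Matches to the element are counted again under the core.

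Eda2r, grouped here with the death receptor genes, encodes the receptor of ectodysplasin A2, a member of the tumour necrosis factor receptor family. Its level was 6.82, 9.93 and 6.42 CPM in the CKO and 2.04, 0.79 and 2.06 CPM in the controls, from 197, 266 and 157 reads against 52, 18 and 54 reads. Every CKO library was more than 3 times as high as every control. The mean was 7.72 ± 1.92 CPM in the CKO and 1.63 ± 0.73 CPM in the controls (SD, n = 3 per group). It rose 4.71-fold, with a 95% confidence interval of 2.57 to 8.62 (log2 fold change 2.24 ± 0.38 SE, edgeR adjusted p = 0.0459). The call rested on all but 1 of the libraries. Its adjusted p was 0.154, 0.179 and 0.145 without CKO replicates 1, 2 and 3, and 0.0931 and 0.188 without control replicates 1 and 3, and 0.0238 without control replicate 2, while the log2 fold change stayed between 1.93 and 2.47 over those 6 fits and 8 others. Without a composition factor in the scaling the call was missed too (adjusted p = 0.0542).

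Lens RNA differed between these libraries, with the marker sums given above, and its part in the Eda2r difference was not tested. Eda2r is on the X chromosome, and the libraries differed in Xist, the RNA of the inactive X chromosome, which stood at 523, 223 and 363 CPM in the CKO and at 1.41, 738 and 1195 CPM in the controls. The Y-linked gene Ddx3y was at 43.7, 62.1 and 55.6 CPM in the CKO and at 78.0, 25.6 and 36.9 CPM in the controls. Every library thus held reads of both genes, with few Xist reads in control replicate 1, and the part of sex in the Eda2r difference was not tested. The ligand gene Eda was at 4.91 ± 0.65 CPM in the CKO and 4.38 ± 0.50 CPM in the controls (SD, n = 3 per group), and was not called (edgeR adjusted p = 0.946). Tnfrsf10b, the mouse receptor of the death ligand TRAIL, was at 3.50, 3.51 and 3.48 CPM in the CKO and 2.67, 2.14 and 2.74 CPM in the controls. The groups did not overlap, but the 1.39-fold difference was not called (95% interval 0.993 to 1.94, edgeR adjusted p = 0.777).

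The cell cycle brakes were led by Cdkn1a, which encodes p21, the inhibitor of cyclin-dependent kinases. Its level was 13.4, 14.2 and 13.6 CPM in the CKO and 8.79, 9.38 and 9.29 CPM in the controls. The libraries of each genotype lay close together and far from those of the other. The 1.5-fold difference (95% interval 1.19 to 1.90, log2 fold change 0.58 ± 0.15 SE) was not called by edgeR (adjusted p = 0.226) and was called by DESeq2's Wald test (adjusted p = 0.0129). Over 14 alternatives the log2 fold change lay between 0.56 and 0.66, and the adjusted p between 0.0129 and 0.9999.

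The other brakes had values above 0 without a call. Ccng1, an atypical cyclin, was at 90.7, 95.8 and 85.8 CPM in the CKO and 90.8, 49.6 and 67.3 CPM in the controls. Control replicate 1 lay among the CKO libraries and control replicate 2 far below them. Plk3, a stress-activated polo-like kinase, averaged 37.0 ± 2.39 CPM in the CKO and 30.5 ± 8.18 CPM in the controls, and its relative Plk2 averaged 13.2 ± 1.32 and 11.6 ± 2.04 CPM in the same order. Btg2, an antiproliferative gene that marks neurogenic divisions in the embryonic brain, was the brake with most reads, at 202, 198 and 194 CPM in the CKO and 201, 159 and 195 CPM in the controls. Its 95% interval of fold change was 0.859 to 1.34.

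Mdm2, the ligase gene through which p53 limits itself, was at 101, 103 and 106 CPM in the CKO and 104, 85.2 and 103 CPM in the controls. The groups overlapped, and the fold change was 1.06 with a 95% interval of 0.860 to 1.31 (edgeR adjusted p = 0.954).

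The mitochondrial death genes had values on both sides of 0, and none was called. Bax, a pore former, was at 67.2, 66.7 and 76.0 CPM in the CKO and 69.6, 134 and 54.6 CPM in the controls, where control replicate 2 lay far above all other libraries. Its log2 fold change was -0.30, the lowest among the p53 targets, and rose above 0 without that library. Bbc3, which encodes the BH3-only protein PUMA, was at 26.3, 25.7 and 29.6 CPM in the CKO and 25.2, 25.7 and 25.4 CPM in the controls. Its groups were separated by 0.03 CPM only, and its fold change was 1.07 (95% interval 0.864 to 1.33). Pmaip1, which encodes NOXA, had 18, 20 and 15 reads in the CKO and 16, 11 and 16 reads in the controls, too few to show a small change (95% interval of fold change 0.708 to 1.87).

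Of the other pro-apoptotic targets, all 6 had values above 0 and none was called by edgeR, DESeq2 or limma-voom or had an unadjusted edgeR p under 0.05. Aen encodes a nuclease that is induced by p53 and digests DNA and RNA. It was at 63.3, 58.0 and 57.8 CPM in the CKO and 45.1, 54.8 and 41.7 CPM in the controls, so that the lowest CKO library was above the highest control. Its fold change was 1.26, with a 95% interval of 0.994 to 1.61 (edgeR adjusted p = 0.779). Phlda3, an inhibitor of AKT signalling, averaged 6.12 ± 0.49 CPM in the CKO and 4.53 ± 1.14 CPM in the controls (SD, n = 3 per group), with 1 control within the CKO range. Trp53inp1, a stress protein that acts with p53, was at 94.0, 93.0 and 84.4 CPM in the CKO and 90.8, 47.1 and 83.5 CPM in the controls. Control replicate 2 lay far below the other 5 libraries. Zmat3, an RNA-binding regulator of splicing, and Ei24, a membrane protein of the endoplasmic reticulum, had fold changes of 1.05 and 1.05. Perp, a junction protein of epithelia, had 30, 15 and 9 reads in the CKO and 12, 6 and 12 reads in the controls. Its log2 fold change of 0.72 was 0.22 without CKO replicate 1.

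Genes for metabolic protection and nucleotide supply were not called. Sesn1, an inhibitor of mTORC1, averaged 37.8 ± 1.02 CPM in the CKO and 38.4 ± 7.07 CPM in the controls. Rrm2b, the p53-induced subunit of ribonucleotide reductase, averaged 22.5 ± 2.74 CPM in the CKO and 19.4 ± 6.42 CPM in the controls (SD, n = 3 per group). Control replicate 2 was the lowest library for both.

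**Figure D3:**
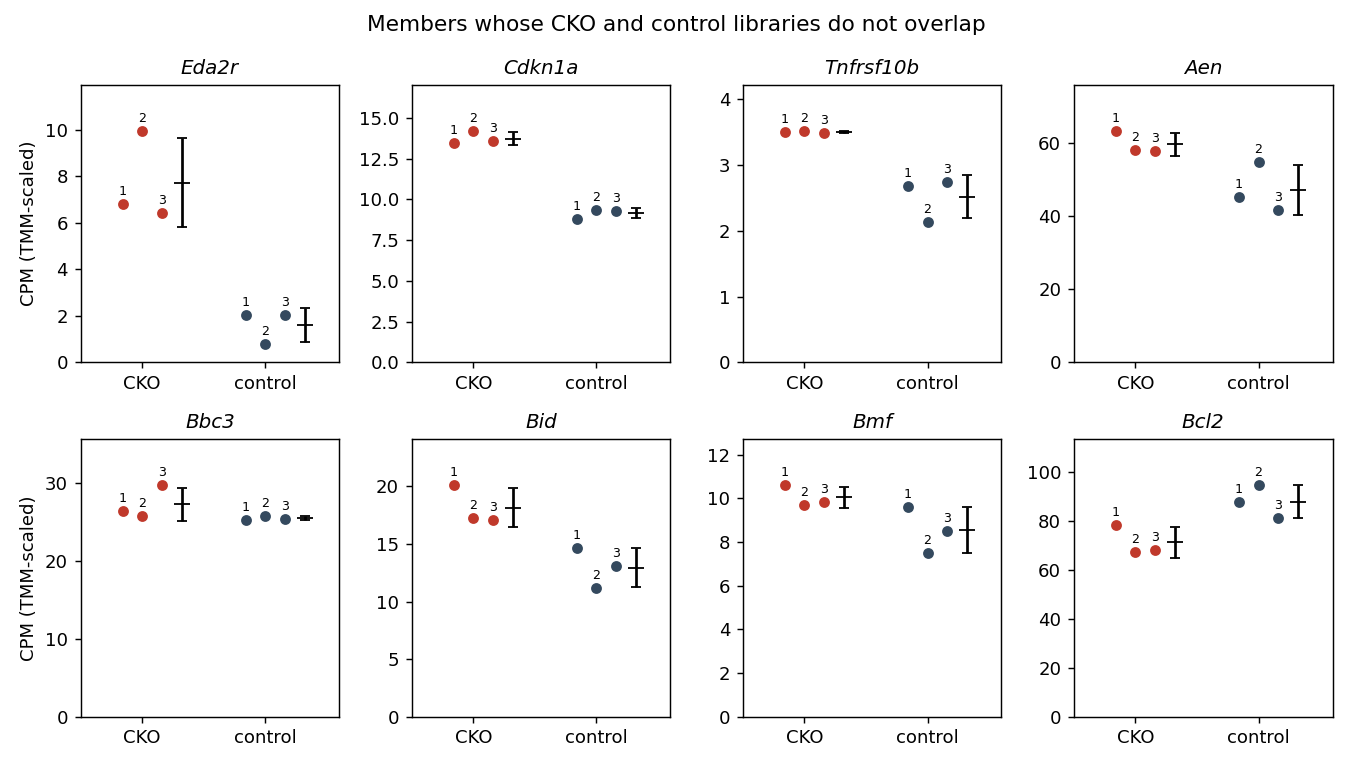
CPM of the 8 members whose CKO and control libraries do not overlap, with 1 point per library labelled by replicate number and the mean ± SD of 3 libraries beside it. Eda2r has the largest fold difference of the 8, with means of 7.72 CPM in the CKO and 1.63 CPM in the controls, while Bbc3 is separated by a margin too small to see and Bcl2 is the member that is lower in the CKO.

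No gene of the apoptosis machinery was called. Of its 15 genes all were tested, and 0 were called higher or lower by edgeR, by DESeq2 or by limma-voom, while 2 had an unadjusted edgeR p under 0.05, Bid and Bok, where 6.58% of all genes did. The median log2 fold change was -0.07, with 6 values above 0 and 9 below. By separation of the libraries, 2 genes (Bid and Bmf) were higher and 1 (Bcl2) lower, against the 5.74% and 6.91% of all genes. The median deviation of a library from the controls was 0.00, -0.10 and -0.03 in the CKO and 0.08, 0.00 and -0.07 in the controls on the log2 scale, so that the groups overlapped.

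The BH3-only genes had mixed values. Bid, whose protein is cleaved by caspase-8 and links death receptors to mitochondria, was at 20.1, 17.3 and 17.1 CPM in the CKO and 14.6, 11.2 and 13.1 CPM in the controls. All CKO libraries were above all controls, with CKO replicate 1, the richest in lens RNA, the highest. Without that library the log2 fold change was 0.41, against 0.49 with it. The part of lens RNA in the Bid difference was not tested. The fold change was 1.40 with a 95% interval of 1.07 to 1.83 (edgeR adjusted p = 0.538). Bmf, which responds to loss of attachment, was at 10.6, 9.71 and 9.86 CPM in the CKO and 9.62, 7.503 and 8.53 CPM in the controls. The gap between the groups was narrow, and the fold change of 1.18 had a 95% interval of 0.896 to 1.54. Hrk, a BH3-only gene of neurons, was at 15.03, 13.8 and 11.2 CPM in the CKO and 8.91, 12.0 and 11.8 CPM in the controls, and the groups overlapped. Bcl2l11, which encodes BIM, and Bad, which is controlled by phosphorylation, had fold changes of 1.04 and 0.872.

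The pro-survival genes had values below 0, and none was called. Bcl2 was at 78.2, 67.2 and 67.8 CPM in the CKO and 87.7, 94.3 and 81.0 CPM in the controls. Every CKO library was below every control. The fold change was 0.811 with a 95% interval of 0.655 to 1.003 (log2 fold change -0.30 ± 0.13 SE, edgeR adjusted p = 0.774). Bcl2l1, which encodes BCL-XL, was at 93.5, 84.9 and 85.6 CPM in the CKO and 86.6, 136 and 81.1 CPM in the controls, so that its lower mean in the CKO came with control replicate 2. Without that library its log2 fold change was 0.08. Mcl1, a short-lived member needed by many progenitors, averaged 173 ± 7.96 CPM in the CKO and 185 ± 8.99 CPM in the controls (SD, n = 3 per group).

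Of the pore formers, Bok was at 9.62, 8.03 and 8.42 CPM in the CKO and 18.2, 14.5 and 9.14 CPM in the controls. Control replicate 3 lay among the CKO libraries and the other controls above them. The fold change of 0.623 had a 95% interval of 0.411 to 0.945 and was not called (edgeR adjusted p = 0.641). Bak1 averaged 23.8 ± 0.58 CPM in the CKO and 27.5 ± 4.10 CPM in the controls.

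The genes of caspase activation had log2 fold changes between -0.08 and 0.07. Casp9, the initiator caspase of the mitochondrial route, averaged 51.0 ± 1.67 CPM in the CKO and 53.4 ± 6.34 CPM in the controls. Apaf1, which builds the platform for it, averaged 85.5 ± 4.46 CPM in the CKO and 81.2 ± 14.6 CPM in the controls. Casp8, the initiator caspase of death receptors, averaged 6.93 ± 1.15 and 7.28 ± 1.05 CPM in the same order. Diablo, which relieves caspases of inhibition, averaged 65.3 ± 1.40 CPM in the CKO and 69.0 ± 7.62 CPM in the controls. Xiap, the caspase inhibitor and, like Eda2r, on the X chromosome, was at 123, 120 and 113 CPM in the CKO and 148, 79.2 and 129 CPM in the controls. The control values enclosed those of the CKO, and the fold change was 1.001 (95% interval 0.699 to 1.43).

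Other genes of the pathways were taken from lists of p53 regulators, further p53 targets, caspases and their substrates, further BCL-2 family genes, inhibitors of apoptosis with mitochondrial release genes, and death receptor signalling. In the regulator list, 3 of 19 tested genes had an unadjusted edgeR p under 0.05, against 6.58% of all genes tested. The median log2 fold change was -0.02, with 9 values above 0 and 10 below. By edgeR 1 of the 19 was called higher, where 0.192% of all genes were. The called gene was Trp73, which encodes p73, a relative of p53 that binds similar sites. It was at 2.597, 2.80 and 2.54 CPM in the CKO and 0.55, 0.74 and 0.80 CPM in the controls. The groups lay far apart, and the gene rose 3.78-fold (log2 fold change 1.92 ± 0.26 SE, edgeR adjusted p = 0.0200). Its adjusted p was 0.104, 0.117 and 0.128 without CKO replicates 1, 2 and 3 and 0.0898 without control replicate 3, and 0.0476 and 0.0247 without control replicates 1 and 2. Trp53 itself, given with its values as the gene of p53, was at 75.0, 75.6 and 83.2 CPM in the CKO and 67.6, 43.1 and 68.5 CPM in the controls. All CKO libraries were higher, and the 1.30-fold difference was not called (edgeR adjusted p = 0.871). Trp63, which encodes the third relative, p63, had at most 0.0872 CPM in a library and was not tested.

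None of the 43 further p53 targets tested was called by edgeR or limma-voom, 3 had an unadjusted edgeR p under 0.05, and DESeq2 called 1 higher, Polk. Of all genes tested, 6.58% had such a p and DESeq2 called 0.801% higher, so the count of 3 is near the background. Their median log2 fold change was -0.000216, with 21 values above 0 and 22 below. This count differs from the 17 of 19 among the p53 targets above, and the difference between the lists was not tested. Polk, which encodes a translesion DNA polymerase, was at 25.0, 31.9 and 31.2 CPM in the CKO and 12.8, 7.07 and 15.5 CPM in the controls. The groups did not overlap, and the fold change was 2.48 (edgeR adjusted p = 0.134 with genotype alone over all libraries). Without control replicate 2, or with replicate number as a block, edgeR called Polk higher. The target with most reads in that list, Cyfip2, averaged 279 ± 9.60 CPM in the CKO and 248 ± 35.3 CPM in the controls.

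No gene was called by edgeR or limma-voom among 8 caspases and substrates, 12 further BCL-2 family genes, 15 inhibitors of apoptosis and mitochondrial release genes, and 15 death receptor genes. At an unadjusted edgeR p under 0.05 there were 0, 1, 2 and 0 in these lists, and DESeq2 called 0, 1, 1 and 0. Over all genes tested these shares were 6.58% for the unadjusted p, and 0.801% called higher and 1.42% called lower by DESeq2. Htra2, a mitochondrial protease that antagonises XIAP once released, was at 43.0, 47.8 and 49.2 CPM in the CKO and 22.0, 31.9 and 26.9 CPM in the controls. Its 1.73-fold difference was called by DESeq2 and not by edgeR over all libraries (edgeR adjusted p = 0.133). Without control replicate 2, edgeR called Htra2 higher.

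Bcl2l12, a BCL-2-like gene, was at 12.4, 14.4 and 13.7 CPM in the CKO and 22.1, 19.7 and 20.5 CPM in the controls. It was the other gene called by DESeq2, and its fold change was 0.652 (edgeR adjusted p = 0.195). The genes with most reads in the 4 lists were not called: Lmnb1, a lamin cut by caspases, averaged 674 ± 47.3 CPM in the CKO and 882 ± 244 CPM in the controls, and Bcl2l13 averaged 226 ± 23.4 and 223 ± 17.3 CPM in the same order. Vdac1, the channel of the outer mitochondrial membrane, averaged 294 ± 10.7 CPM in the CKO and 267 ± 43.1 CPM in the controls. Dapk1, a death-associated kinase, averaged 202 ± 2.23 CPM in the CKO and 229 ± 31.3 CPM in the controls.

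**Figure D4:**
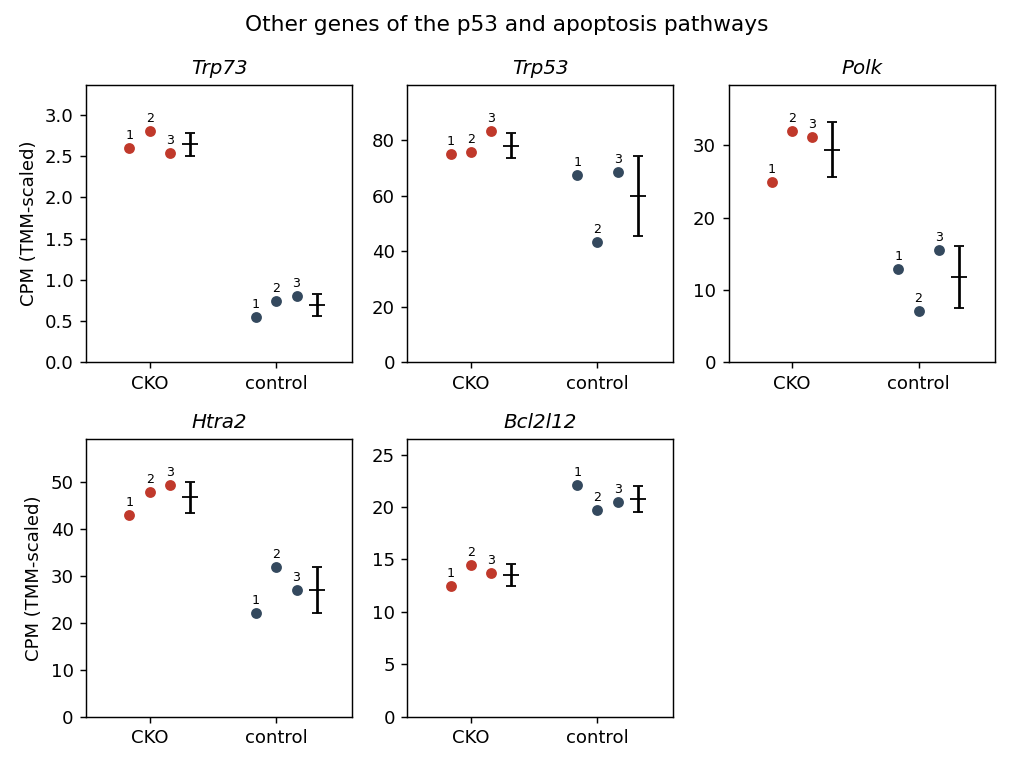
CPM of 5 further genes of the pathways, with 1 point per library labelled by replicate number and the mean ± SD of 3 libraries beside it. CKO and control libraries do not overlap in any panel. Trp73 was called by edgeR at 2.64 against 0.697 CPM, and Bcl2l12 is lower in the CKO.

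Markers of other cells were summed in each library. Those of microglia and macrophages, which clear dying cells, were 13 genes that summed to between 48.9 and 62.9 CPM in the CKO and between 50.1 and 61.3 CPM in the controls. The 13 blood vessel markers summed to between 258 and 284 CPM in the CKO and between 302 and 361 CPM in the controls. The 11 pigment epithelium markers summed to between 38.3 and 46.3 CPM in the CKO and between 44.6 and 84.3 CPM in the controls. The 9 periocular mesenchyme markers summed to between 58.5 and 78.4 CPM in the CKO and between 76.3 and 191 CPM in the controls. The 10 erythroid markers, of which 3 had no read in any library, summed to between 4.14 and 13.6 CPM in the CKO and between 7.42 and 17.0 CPM in the controls. The 13 retinal neuron markers summed to between 4165 and 4258 CPM in the CKO and between 3912 and 4362 CPM in the controls. The part of these cells in the results above was not tested. With CKO replicate 1 and control replicate 2 both left out, the median log2 fold change of the p53 targets was 0.14, that of the apoptosis genes was -0.09, and none of either list was called by edgeR.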

How the data were processed

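The authors deposited 1 table of raw read counts per gene symbol for the 6 libraries, made from poly-A selected RNA per the labels' protocols. The submitters' processing notes name the build mm9 and the tools HTSeq 0.5.4p3, BWA 0.7.6a-r433 and DESeq 2.13. The sources used here do not say what each tool did, which annotation was used or whether strand was kept, so reads of overlapping genes on opposite strands cannot be told apart. In the table, 4 lines that hold no counts and 1 repeated gene row were skipped, and 0 rows named no gene.

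The analysis used edgeR 4.0.16 in R 4.3.3: filterByExpr (minimum count 10) left 14609 of 23441 genes, libraries were scaled by TMM, and genotype alone was tested with glmQLFTest over all genes. The SE was derived from the log2 fold change and its F statistic, confidence intervals are for single genes without adjustment, and the procedure was tested on simulated data. Alternatives included DESeq2 1.42.0 and limma-voom (limma 3.58.1). All pairs of libraries differed by more than sampling noise, with a chi-square of at least 5.94 per degree of freedom. The members and lists were chosen with earlier results of these data known, and no set test was made. Named genes were every member, and from each further list the called genes, or the most abundant gene, plus the largest difference without overlap; Trp53, Trp63 and Eda were added after their values were seen. Some genes of the lists are not reported here and were left out of list counts and sums.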

Additional observations from a re-analysis of the deposited data

How the results depend on the processing

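Over all genes, 117 genes were higher and 207 lower by DESeq2, against 28 and 103 by edgeR, and leaving out 1 library in turn gave 6 to 72 higher and 10 to 147 lower, the highest counts without control replicate 2. Of the p53 targets among the members, DESeq2 called 2, library sizes alone as the scaling gave 0, and leaving out 1 library gave 0 to 1. The median log2 fold change of the p53 targets ranged from 0.12 to 0.34 when 1 library was left out, and that of the apoptosis genes was -0.00485 with library sizes alone, where the median of all genes was 0.04. Without CKO replicate 1 and control replicate 2, an alternative chosen after seeing the data, 11 genes were called higher, 39 lower and 0 of the p53 targets. None of the 15 apoptosis machinery members was called in any of the 14 alternatives. In the further lists, DESeq2 called Trp73, Polk and Htra2 higher and Bcl2l12 lower. In the same lists, edgeR without control replicate 2 called Trp73, Polk and Htra2 higher. With replicate number as a block, edgeR called 40 genes higher and 113 lower. Of these, 1 was a p53 target among the members (Eda2r), 1 a further p53 target (Polk) and 1 a p53 regulator (Trp73). Among them, 0 were apoptosis machinery members. Deviations of libraries with the same number had correlations of 0.32, 0.10 and -0.02, and not every library correlated best with its own number. Deviations from a mean of 3 libraries depend on each other, so these values cannot decide whether the numbers pair the libraries. The 1.5-fold difference of Cdkn1a was called by DESeq2 and by none of the other 13 alternatives. Depth limits what can be said of Fas, which had too few reads to be tested.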
